A study of Mus musculus with 2 samples.

Results

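Myc, the transcription factor that drives cell growth, was followed together with 9 genes of polyamine synthesis and ribosome production: Odc1, Srm, Ncl, Npm1, Fbl, Nop56, Nop58, Rrs1 and Pus7. These 10 genes were taken by symbol from the 32285 listed features, and all 10 were found. The study had profiled splenic regulatory T cells (Tregs) of 7-day-old C57BL/6J mice by droplet single-cell RNA sequencing, which tags every captured transcript with a molecular identifier (UMI) and with the barcode of its droplet. The WT library came from Foxp3Cre mice and the KO library from Zfp335fl/fl Foxp3-Cre mice, with 1 library per genotype. In both genotypes Cre and YFP are expressed from the Foxp3 locus, so deletion depends on expression of Foxp3, and cells were sorted as YFP+7AAD-. The number of mice per library is not given in the sources used here, and genotype and library preparation cannot be told apart.

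Myc binds DNA with Max and raises transcription of genes for nucleotide, amino acid, polyamine and ribosome synthesis. Odc1 encodes ornithine decarboxylase, the first enzyme of polyamine synthesis, and Srm encodes spermidine synthase, which turns its product, putrescine, into spermidine. Ncl (nucleolin) and Npm1 (nucleophosmin) are abundant nucleolar proteins. Fbl (fibrillarin), Nop56 and Nop58 are core proteins of the box C/D particles that methylate ribosomal RNA. Rrs1 is needed to assemble the large ribosomal subunit, and Pus7 is a pseudouridine synthase. T cells that leave rest after antigen contact are known to raise Myc and enlarge their nucleoli before they divide.

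In the annotation of the matching build (GRCm38) all 10 are protein-coding genes. Myc lies on chromosome 15 from 61985391 to 61990374, Odc1 on chromosome 12 from 17544794 to 17551505 and Srm on chromosome 4 from 148591503 to 148594993, all on the plus strand. Chromosome 1 holds Ncl (86344719 to 86359400, minus strand), Nop58 (59684971 to 59719044, plus strand) and the single-exon gene Rrs1 (9545408 to 9547455, plus strand). Npm1 lies on chromosome 11 from 33152287 to 33163206 and Pus7 on chromosome 5 from 23740648 to 23783711, both on the minus strand, and Fbl on chromosome 7 from 28169710 to 28179269 on the plus strand. Nop56 lies on the plus strand of chromosome 2 from 130274430 to 130279313 and overlaps Idh3b, which is on the other strand, so its reads are uncertain to the extent that the counting did not use strand. Promoters in RefSeq (GRCm38.p6), spanning 250 bases before to 50 bases after the transcript start, were matched for 5 of the 10 genes: Ncl, Nop56, Nop58, Odc1 and Pus7, with 6 entries because Pus7 has more than one. They were searched on both strands for CACGTG, the E-box that Myc and Max bind, and for CACGCG or its complement CGCGTG, a related form. CACGTG occurred in 7.15% and the CACGCG form in 9.27% of all 32851 promoters of this length. Below, 3 promoters are shown because Odc1, Pus7 and Nop56 followed different patterns among the states described next. Capitals mark the searched motifs.
Odc1, chr12:17544623-17544922, plus strand: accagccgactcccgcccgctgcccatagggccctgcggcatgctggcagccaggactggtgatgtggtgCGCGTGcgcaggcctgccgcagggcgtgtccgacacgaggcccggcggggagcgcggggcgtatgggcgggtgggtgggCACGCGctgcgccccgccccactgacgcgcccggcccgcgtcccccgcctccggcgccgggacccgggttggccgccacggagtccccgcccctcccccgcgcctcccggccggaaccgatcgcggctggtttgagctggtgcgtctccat
Pus7, chr5:23783662-23783961, minus strand: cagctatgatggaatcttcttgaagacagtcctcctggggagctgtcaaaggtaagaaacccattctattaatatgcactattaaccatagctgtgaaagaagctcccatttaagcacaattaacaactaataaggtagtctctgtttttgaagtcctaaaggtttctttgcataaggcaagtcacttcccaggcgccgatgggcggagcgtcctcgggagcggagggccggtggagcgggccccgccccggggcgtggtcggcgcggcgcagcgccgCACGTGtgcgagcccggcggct
Nop56, chr2:130274162-130274461, plus strand: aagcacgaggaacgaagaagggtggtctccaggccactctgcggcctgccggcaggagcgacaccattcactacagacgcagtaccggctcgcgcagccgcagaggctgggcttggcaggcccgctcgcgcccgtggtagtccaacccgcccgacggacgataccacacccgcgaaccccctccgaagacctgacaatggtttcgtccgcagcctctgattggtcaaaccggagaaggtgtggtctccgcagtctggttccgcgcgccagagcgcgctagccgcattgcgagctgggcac
The Odc1 promoter held 2 matches to the CACGCG form, and the Pus7 entry shown held 1 CACGTG, so that each motif occurred in 1 of the 6 entries. Neither occurred in the other Pus7 entry or in those of Ncl, Nop56 and Nop58. These matches describe the sequences and say nothing of binding in these cells.

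The barcodes used had 300 or more genes and no more than 5% of UMIs from mitochondrial genes, which held for 8053 of 14524 in WT and 13767 of 18134 in KO. WT barcodes were deeper, with a median of 5061 UMIs against 2713 in KO. Zfp335 was read as a check of the labels and was 8.16 CPM (UMIs of a gene scaled to 1e+06 UMIs of its set) in WT and 0.80 CPM in KO T-lineage barcodes, a ratio of 0.10 (0.07 to 0.14). It was also lower in KO barcodes of other lineages, 6.85 CPM in WT (39 UMIs) and 3.08 CPM in KO (16 UMIs), a ratio of 0.45 (0.23 to 0.82). Clustering without the 10 genes and their pathway lists gave 15 clusters, of which 9 were of T lineage and held 7484 WT and 12978 KO barcodes. The summed level of 6 Treg identity genes, Foxp3 among them, was 992 to 1747 CPM in the WT T-lineage clusters and 157 to 577 CPM in the other WT clusters. Cluster 1 was resting T-like (leading genes Ly6c1, Pik3ip1 and Satb1; 2147 WT and 4919 KO barcodes). Cluster 3 was effector Treg-like (S100a4, Cxcr3, Klrg1; 2202 and 147). Cluster 9 was G2/M phase-like (Ccnb1, Ccnb2 and Nek2, with the effector gene Cxcr3 also leading; 404 and 341). Cluster 5 was led by histone genes and stayed unnamed (594 and 786). It carried G2/M phase RNA too. The summed level of the 29 G2/M phase genes was 6841 CPM in WT and 7350 CPM in KO of cluster 5, against 5221 and 7420 CPM in cluster 9. Cluster 4 also stayed unnamed (440 and 1162). It was led by Lad1, Ung and Nefh. Its best match was the S phase list, with 2 markers (Ung and Mcm3) among its 10 leading genes and 14 of 18 raised. The naming rule gave no S phase name. The summed level of the 18 S phase genes in cluster 4 was 1929 CPM in WT and 1871 CPM in KO. This lay above cluster 1, at 425 and 426 CPM, but below cluster 5, at 2745 and 2453 CPM. The summed level of 8 activation markers such as Tnfrsf9 and Nr4a1 in cluster 4 was 1511 CPM in WT and 1398 CPM in KO, against 566 and 761 CPM in cluster 1. Clusters 2, 6 and 8 were shallow, carried globin and neutrophil granule RNA, and together held 1073 WT but 5324 KO barcodes. Cluster 7 stayed unnamed and was led by Hspa1b, Hspa1a and Gm26917 (624 and 299). All intervals are 95% intervals that cover counting error only, and with 1 library per genotype no test between genotypes was possible.

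The first question was in which T cell state these genes stood highest. Only T-lineage clusters with at least 100 barcodes in a library were ranked, which left out WT cluster 8 with 15 barcodes. In WT each of the 10 had its highest level of these clusters in cluster 4, though for Myc and Rrs1 the interval overlaps that of the next cluster. In KO this held for 8, of which Odc1 and Rrs1 had intervals that overlap those of the next cluster. Myc was highest in KO cluster 3, at 42.6 CPM (30.8 to 57.4) from 43 UMIs, before clusters 7 (20 UMIs) and 6 (4 UMIs). Nop56 was highest in KO cluster 6, at 376 CPM (273 to 505) from 44 UMIs. Both intervals overlap those of cluster 4. In cluster 4 the 10 genes summed to 7580 CPM (7502 to 7659) for WT and 6964 CPM (6913 to 7016) in KO, against 2820 CPM (2786 to 2854) and 2993 CPM (2970 to 3017) in resting T-like cluster 1. A gene was counted as higher or lower when it differed 1.5-fold or more and had at least 200 UMIs in the sums compared. In WT all 10 genes were higher in cluster 4 than in cluster 1, against 19.2% of the 6313 genes compared. In KO 9 of 10 were higher, against 15.6% of 7905 genes, and Myc itself was not among them. Over the 10 genes the log2 ratio had a median of 1.41 in WT and 1.21 in KO, beside -0.05 and -0.08 for all genes compared.

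**Figure D1:**
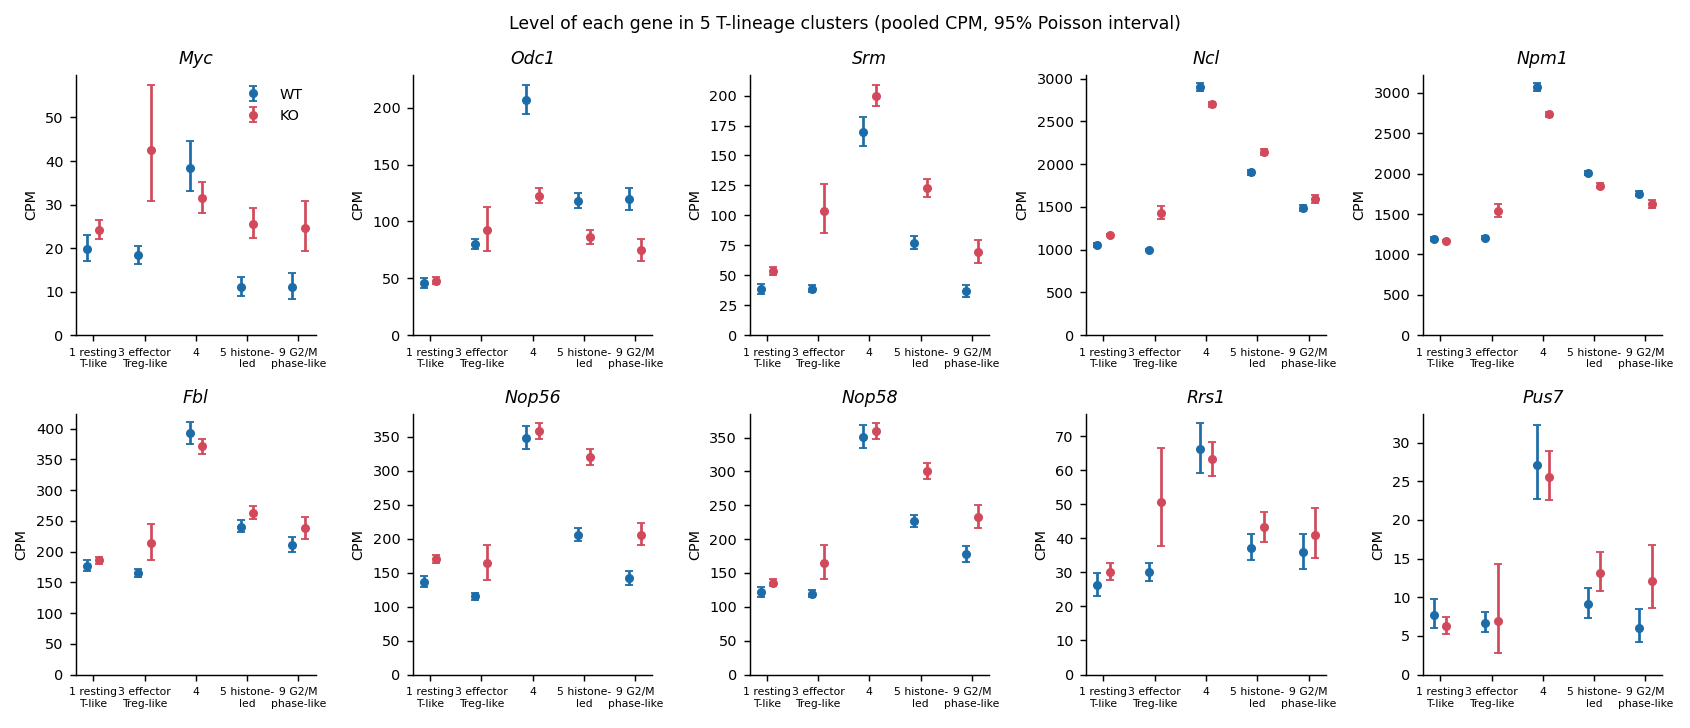
Pooled level in CPM (linear axis) of each of the 10 genes in 5 T-lineage clusters, WT in blue and KO in red, with 95% Poisson intervals. Every gene has its highest WT point in cluster 4, whereas the KO points of Myc lie between 24.2 and 42.6 CPM over the 5 clusters.

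Odc1 had the highest WT ratio of the 10 genes, with an interval that overlaps those of Srm and Pus7, and a smaller ratio in KO. It was 45.6 CPM in cluster 1 and 207 CPM in cluster 4 of WT, a ratio of 4.53 (4.04 to 5.09). In KO it was 48.0 and 123 CPM, a ratio of 2.56 (2.35 to 2.78). Srm, which acts in the same pathway, had nearly as large a step in both libraries. Its ratio of cluster 4 to cluster 1 was 4.39 (3.88 to 4.99) for WT and 3.73 (3.46 to 4.02) for KO. Pus7 had the largest step in KO, 4.09 (3.30 to 5.09), and 3.50 (2.61 to 4.73) in WT, with overlapping intervals.

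Myc had the lowest ratio of the 10 genes in both libraries, in WT with an interval that overlaps that of Fbl among others. It was 19.9 CPM (17.1 to 22.9) in cluster 1 and 38.5 CPM (33.1 to 44.5) in cluster 4 of WT, a ratio of 1.94 (1.57 to 2.39). In KO it was 24.2 CPM (22.2 to 26.4) and 31.5 CPM (28.1 to 35.1), a ratio of 1.30 (1.12 to 1.498). Myc thus stood above its resting level in both libraries, and the intervals of its 2 ratios do not overlap. The nucleolar and box C/D genes lay between, with ratios from 2.22 (Fbl) to 2.88 (Nop58) in WT and from 2.00 to 2.66 for the same genes in KO.

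Barcodes of cluster 4 that carried few cell cycle transcripts had the high level too. A barcode was called cycle-high when at least 0.3% of its UMIs came from 47 S and G2/M phase genes, a score without a gap at the threshold, so that 1750 of 18323 scored T-lineage barcodes lay within 0.05 points of it. In the cycle-low barcodes of cluster 4 the 10 genes summed to 8230 CPM in WT (304 barcodes) and 7123 CPM in KO (808). In its cycle-high barcodes they summed to 6460 CPM in WT (135 barcodes) and 6663 CPM in KO (350).

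Other ribosome biogenesis genes were also higher in cluster 4. Of 135 measured genes on 5 lists, 116 could be compared in WT. Of these 86 were higher in cluster 4 than in cluster 1, against 19.2% of 6313 genes, and none lower, against 22.1%. In KO 82 of 128 were higher, against 15.6% of 7905 genes, and none lower, against 17.2%. All 9 further proteins of the box C/D and H/ACA particles were higher in both libraries. RNA polymerase I subunits and factors differed less, with 5 of 12 higher in WT, beside 19.2% of all genes, and 5 of 14 in KO, beside 15.6%. Among partners and antagonists of Myc none was higher, beside the same shares. In WT 4 of 8 (Mxd1, Mxd4, Mxi1 and Mnt, repressors that compete for Max) were lower, beside 22.1% of all genes compared, and in KO 3 of 10 (Mxd1, Mxd4 and Mxi1), beside 17.2%.

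**Figure D2:**
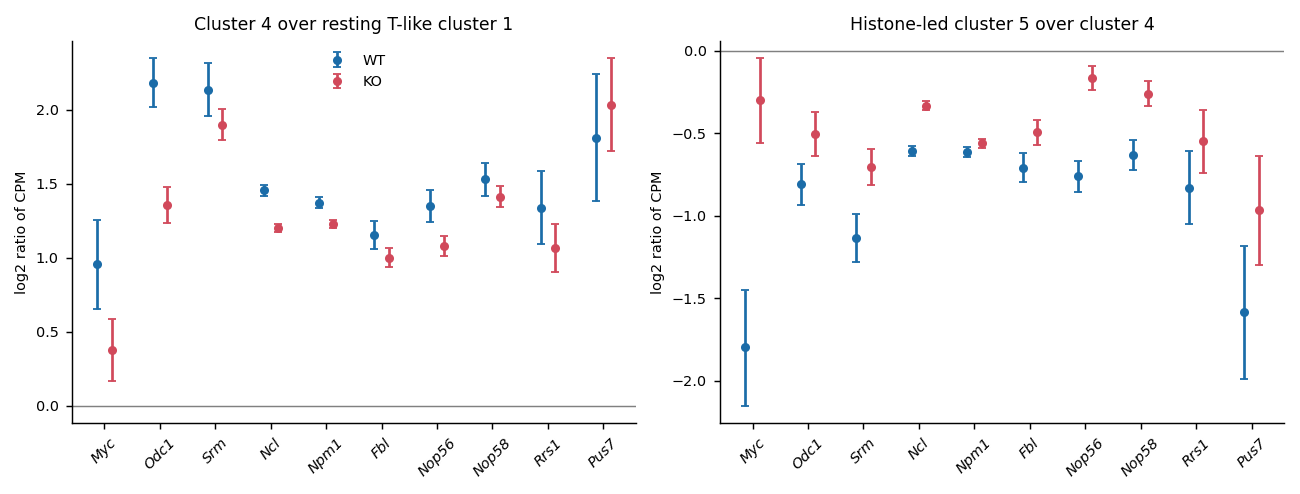
log2 ratio of CPM for each gene between clusters, WT in blue and KO in red, with 95% intervals: cluster 4 over cluster 1 at left and cluster 5 over cluster 4 at right. All points lie above 0 at left and below 0 at right, and the KO points at right lie closer to 0 than the WT points.

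In the histone-led cluster 5, where every barcode was cycle-high, the genes stood below cluster 4. In WT all 10 were lower than in cluster 4, against 7.92% of 6248 genes, and in KO 2 of 10 (Srm and Pus7), against 3.40% of 6699 genes. Myc gave the widest contrast between the libraries. It was 11.1 CPM (9.11 to 13.4) in cluster 5 of WT, a ratio to cluster 4 of 0.29 (0.23 to 0.37). In KO it was 25.6 CPM (22.3 to 29.2), a ratio of 0.81 (0.68 to 0.97). Nop56 likewise had a ratio of 0.59 (0.55 to 0.63) in WT and 0.89 (0.85 to 0.94) in KO.

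Over all T-lineage barcodes, which mix resting T-like and other clusters, the S phase barcodes stood above the cycle-low ones in the summed level. Within cluster 4, where S phase barcodes were not summed apart, the cycle-high barcodes stood below the cycle-low ones in both libraries. Barcodes high in S phase genes, compared with cycle-low barcodes, had 6 of 10 genes higher in WT, against 12.9% of 8534 genes, and 7 of 10 in KO, against 12.1% of 8382. The ratio of Srm was 1.97 (1.79 to 2.17) for WT and 1.94 (1.80 to 2.08) for KO. Going from S-high to G2/M-high barcodes, Srm was lower in both libraries, with a ratio of 0.53 in WT and 0.57 in KO. Myc did not follow the S phase step. Its ratio of S-high to cycle-low barcodes was 0.84 (0.68 to 1.04) for WT and 0.94 (0.78 to 1.12) for KO. All cycle-high barcodes over cycle-low gave a median log2 ratio of the 10 genes of 0.42 in WT and 0.37 in KO, and with the threshold at 0.6% these became 0.05 and -0.16.

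The next question was whether KO and WT differed. Over all T-lineage barcodes Srm was 60.01 CPM (57.9 to 62.2) for WT and 104 CPM (101 to 107) for KO, a ratio of 1.73 (1.65 to 1.81). Nop56 was 166 and 241 CPM, a ratio of 1.45 (1.41 to 1.49). Myc was 18.4 CPM (17.2 to 19.6) and 26.4 CPM (25.1 to 27.9), a ratio of 1.44 (1.32 to 1.57). Odc1 was the only member below 1, at 99.4 CPM (96.7 to 102) in WT and 76.5 CPM (74.2 to 78.9) in KO, a ratio of 0.77 (0.74 to 0.80). Of the 10 genes 1, Srm, passed 1.5-fold higher, against 4.24% of 10250 genes, and none passed lower, against 9.24%. Their log2 ratios had a median of 0.31, beside -0.06 for all genes, and of 0.33 without the shallow clusters 2, 6 and 8.

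This difference moved with the share of effector barcodes. Effector Treg-like cluster 3, where the 10 genes summed to 2778 CPM in WT, a level like that of resting barcodes, held 2202 WT but only 147 KO barcodes. When T-lineage barcodes with under 0.1% of their UMIs in 8 effector Treg genes were compared alone, a split chosen with the data in view, the median over the 10 genes was 0.0822 on the log2 scale. Srm was then 1.41 (1.34 to 1.49), Nop56 1.22 (1.18 to 1.27) and Myc 1.08 (0.98 to 1.19), and Odc1 was at 0.73 (0.69 to 0.76). The part of effector cell number in the T-lineage ratios was not tested beyond this split.

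Within resting T-like cluster 1 the genes differed little between libraries. None of the 10 passed 1.5-fold in either direction, against 2.08% of 7962 genes higher and 6.59% lower. Srm was 38.6 CPM (34.8 to 42.8) for WT and 53.6 CPM (50.5 to 56.8) for KO, a ratio of 1.39 (1.23 to 1.56). Nop56 was 137 and 170 CPM, a ratio of 1.24 (1.16 to 1.32). The interval of Myc, 1.22 (1.03 to 1.45), lay just above 1. The intervals of Odc1, 1.05 (0.94 to 1.18), Fbl, 1.05 (0.99 to 1.11), Rrs1, 1.15 (0.99 to 1.34), and Pus7, 0.81 (0.60 to 1.09), included 1, and Npm1 was at 0.98 (0.96 to 1.00). The median over the 10 genes was 0.15 on the log2 scale, beside -0.06 for all genes. Globin RNA, which T cells do not make, was 495 CPM in WT and 1025 CPM in KO barcodes of cluster 1, and its part in these ratios was not tested.

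**Figure D3:**
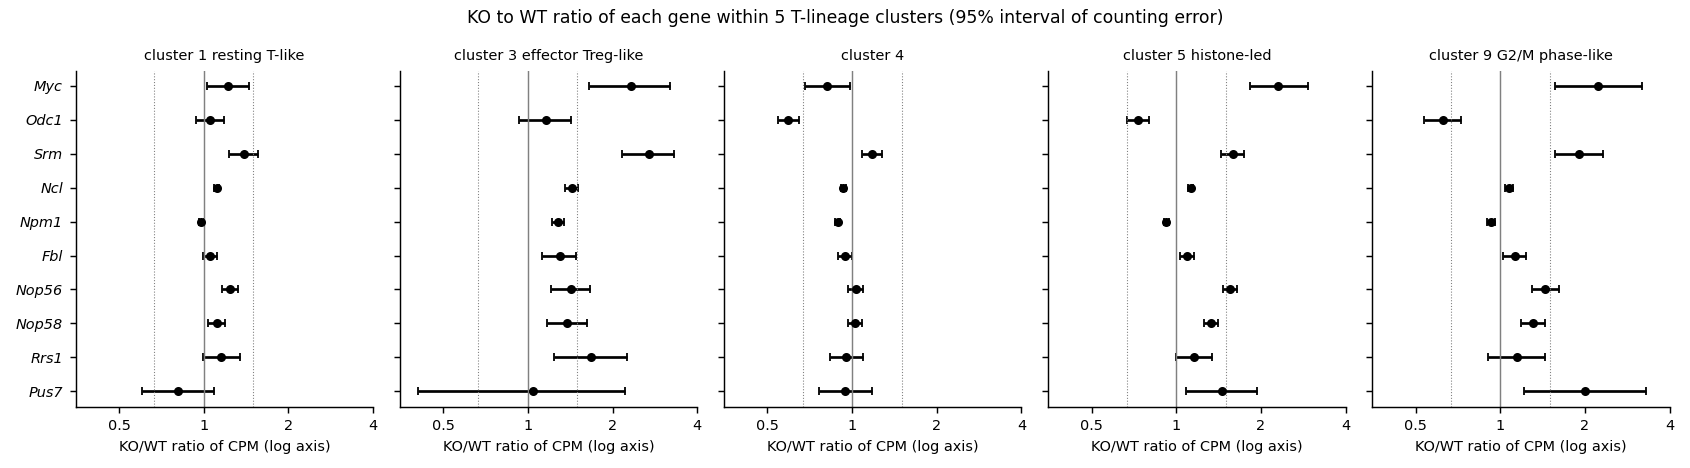
KO to WT ratio of CPM (log axis) for each gene in 5 T-lineage clusters, with 95% intervals of counting error. Dotted lines mark 1.5-fold. In cluster 1 all points lie between the dotted lines, and Odc1 is below 1 in clusters 4, 5 and 9.

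In cluster 4 as a whole, the KO to WT ratio was below 1 for 7 of the 10 genes, but its cycle-low and cycle-high barcodes differed. Odc1 was 207 CPM (194 to 220) for WT and 123 CPM (116 to 130) for KO, a ratio of 0.59 (0.54 to 0.65). It was the only member to pass 1.5-fold lower, against 5.01% of 6064 genes, and none passed higher, against 3.05%. Myc had a ratio of 0.82 (0.68 to 0.99), Npm1 of 0.89 (0.87 to 0.91) and Ncl of 0.93 (0.91 to 0.95). In the cluster as a whole Srm was the member whose interval lay above 1, at 1.18 (1.08 to 1.28). Nop56 and Nop58 were both at 1.03 (0.97 to 1.09). Odc1 and Srm, enzymes of one pathway, thus differed in opposite directions in cluster 4, with intervals apart from each other and from 1. In the cycle-low barcodes of cluster 4 the median log2 ratio over the members was -0.19, with 1 of 10 above 0. In its cycle-high barcodes it was 0.13, with 7 of 10 above 0, Ncl at 1.06 (1.02 to 1.10), Nop56 at 1.21 (1.09 to 1.34), Nop58 at 1.19 (1.07 to 1.32) and Srm at 1.22 (1.05 to 1.42). Odc1 was lower there too, at 0.57 (0.49 to 0.67). The difference between the cycle-low and cycle-high ratios was not tested.

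In cluster 5 the pattern was another. Myc was 11.1 CPM in WT and 25.6 CPM in KO, a ratio of 2.31 (1.82 to 2.93), Srm had a ratio of 1.59 (1.45 to 1.75) and Nop56 of 1.56 (1.47 to 1.65). These 3 of 10 passed 1.5-fold higher, against 5.84% of 6794 genes, and none passed lower, against 5.89%. Odc1 was again lower, at 0.73 (0.67 to 0.80). G2/M phase-like cluster 9 gave like ratios, with Myc at 2.23 (1.57 to 3.19), Srm at 1.90 (1.56 to 2.32) and Odc1 at 0.62 (0.53 to 0.73). Of the 8 members with enough UMIs there, 1 was higher, against 6.52% of 4664 genes, and 1 lower, against 7.31%, and Myc, with 135 UMIs in both libraries together, was not counted. By score rather than by cluster, the G2/M-high barcodes (946 WT and 3086 KO) had 4 of 10 higher in KO, against 6.57% of 7729 genes. Myc was at 2.46 (2.01 to 3.02) in them. They were drawn from all T-lineage clusters. In shallow cluster 2, with 154 WT but 4320 KO barcodes, 61.6% of WT and 61.1% of KO scored barcodes were cycle-high. The part of cluster 2 in these ratios was not tested.

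The cycling clusters differed between the 2 libraries in their RNA of the 8 effector Treg genes. This RNA was also lower in KO within cluster 1, at 477 CPM in WT and 131 CPM in KO. Fewer effector cells and a lower level of these genes per cell therefore cannot be told apart here. Barcodes with 0.1% or more of their UMIs in the effector genes made up 55.2% of 594 WT but 2.29% of 786 KO barcodes in cluster 5, and 71.3% of 404 WT but 5.57% of 341 KO barcodes in cluster 9. Globin RNA in cluster 5 was 440 CPM in WT and 1761 CPM in KO, and its part in these ratios was not tested. In cluster 5, 44 WT and 13 KO barcodes lay within 0.02 points of this value. Within WT cluster 5, the effector-high barcodes had 7 of 8 genes lower than the effector-low ones, against 4.71% of 5079 genes. Myc was 17.4 CPM in the effector-low and 6.47 CPM in the effector-high WT barcodes, and Srm was 115 and 49.3 CPM.

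**Figure D4:**
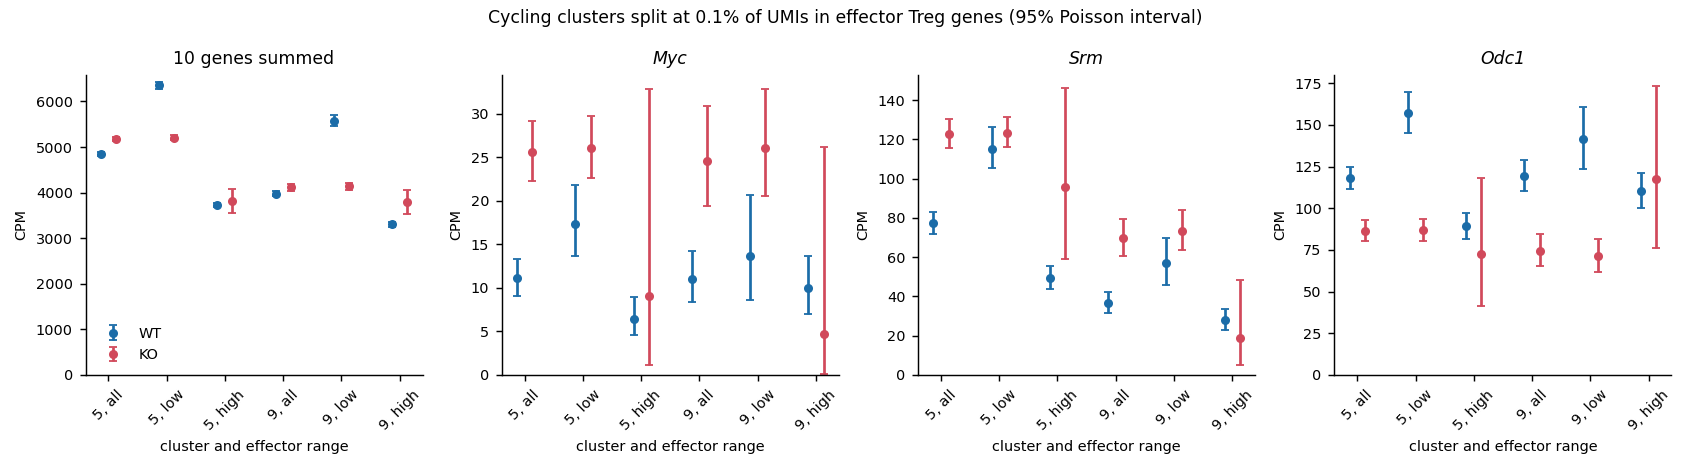
Level in CPM (linear axis) of the 10 genes summed and of Myc, Srm and Odc1 in clusters 5 and 9, for all barcodes and for those under (low) and at or over (high) 0.1% of UMIs in effector Treg genes, with 95% Poisson intervals. The summed level of all cluster 5 barcodes is higher in KO (5172 against 4842 CPM), but that of its effector-low barcodes is lower in KO (5208 against 6355 CPM). The high KO points rest on 18 and 19 barcodes.

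Comparing the effector-low barcodes alone, 266 WT and 768 KO in cluster 5, turned the direction of the summed level, which was 6355 CPM (6279 to 6432) for WT and 5208 CPM (5159 to 5258) for KO. Npm1 was 2698 and 1870 CPM, a ratio of 0.69 (0.68 to 0.71), Ncl was at 0.88 (0.86 to 0.90) and Odc1 at 0.55 (0.50 to 0.61). Srm was at 1.07 (0.96 to 1.20) and Nop56 at 1.19 (1.11 to 1.28). The difference in Myc was smaller, at 1.498 (1.14 to 1.98), with KO still above WT. Of 9 members with enough UMIs none passed 1.5-fold higher, against 5.61% of 5724 genes, and 1, Odc1, passed lower, against 4.21%. In effector-low barcodes of cluster 9 (116 WT and 322 KO) 2 of 7, Odc1 at 0.50 (0.42 to 0.61) and Npm1 at 0.63 (0.60 to 0.66), were lower, against 6.17% of 2981 genes, and none was higher, against 8.79%. The KO to WT ratio of Odc1 was below 1 in clusters 4, 5 and 9, and in the effector-low barcodes of clusters 5 and 9. It was not below 1 in cluster 1 (1.05), in cluster 3, at 1.16 (0.93 to 1.43), or in T-lineage barcodes of 1000 to 2000 UMIs (1.05) and of 2000 to 4000 UMIs (1.00).

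In effector Treg-like cluster 3 the KO values rest on 147 barcodes. Their summed level of the 8 effector genes was 2064 CPM against 3748 CPM in WT, so the barcodes of this name differ in degree between the libraries. Of 9 members 3 passed 1.5-fold higher in KO, against 4.38% of 6799 genes: Srm at 2.69 (2.17 to 3.31), Myc at 2.32 (1.65 to 3.20) and Rrs1 at 1.68 (1.23 to 2.24). In WT the effector barcodes were close to resting ones, with 1 of 9, Odc1, higher in cluster 3 than in cluster 1, against 8.41% of 7850 genes, at a ratio of 1.75 (1.57 to 1.95). Myc was 18.4 CPM (16.4 to 20.5) in WT cluster 3 and 19.9 CPM (17.1 to 22.9) in WT cluster 1, and these intervals overlap.

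Because KO barcodes were shallower, the ratios were also taken within ranges of depth. Srm was higher in KO in each of 5 ranges of T-lineage barcodes from 1000 UMIs up, with ratios from 1.85 to 2.36, and Nop56 from 1.253 to 1.69. These ranges mix T cell states. Within cluster 1 Srm was at 1.64 in barcodes of 2000 to 4000 UMIs and 1.38 in those of 4000 to 8000. At the ends, with 54 and 74 WT barcodes, it was at 0.96 (1000 to 2000 UMIs) and 0.94 (8000 to 16000 UMIs). Nop56 in cluster 1 was at 0.85 in the shallowest range and 1.20 to 1.32 in the others. Over all T-lineage barcodes Myc ranged from 1.09 in barcodes of 1000 to 2000 UMIs to 2.03 in barcodes of 16000 UMIs or more. When each barcode was thinned to 1000 UMIs, a Myc UMI was found in 4 of 594 WT barcodes of cluster 5, 0.67% (0.18 to 1.72), and in 24 of 785 KO barcodes, 3.06% (1.97 to 4.52), by exact binomial intervals. Without thinning the shares were 14.6% and 17.3%, at median depths of 15065.5 and 9193 UMIs. The neutrophil-like cluster 13, where the 10 genes summed to the lowest level of all WT clusters (935 CPM), gave 0 of 91 WT barcodes, where a limit of 3 counts allows a share of up to 3.30% and the exact binomial upper bound is 3.97%, and 2 of 83 KO barcodes, 2.41% (0.29 to 8.43), at 9193 and 5334 UMIs. These thinned shares of Myc lie within the interval or limit of cluster 13, so no difference is read from them. For Odc1 in cluster 4, thinning gave 16.4% (13.1 to 20.2) of 439 WT and 10.9% (9.15 to 12.8) of 1158 KO barcodes, above the 3.30% (0.69 to 9.33) and 6.02% (1.98 to 13.5) in cluster 13, where the KO intervals overlap. Unthinned, the cluster 4 shares were 69.3% and 49.3%.

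The other genes of the pathway differed little between the libraries in resting T-like cluster 1. Of 126 compared genes on the ribosome biogenesis lists 2 passed 1.5-fold higher (Noc4l and Nop16) and none lower, and their median log2 ratio was 0.10. Noc4l, of the small subunit processome, had a ratio of 1.63 (1.40 to 1.92), and Nop16, of 60S assembly, of 1.65 (1.41 to 1.93). At the other end were Utp20 at 0.71 (0.55 to 0.93), Wdr36 at 0.79 (0.66 to 0.93), Nvl at 0.79 (0.71 to 0.88) and Nol9 at 0.83 (0.68 to 1.02). Rrp7a, at 1.46, and Rrp1b, at 1.37, stood next to the top of their lists.

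Box C/D and H/ACA proteins stood highest as a list, with a median of 0.28 over 9 genes. Rrp9 was at 1.30 (1.13 to 1.497) and Nolc1, a nucleolar chaperone of these particles, at 1.27 (1.17 to 1.38), while Dkc1 (0.98) and Naf1 (1.04), of the H/ACA side, were near 1. For RNA polymerase I the median was 0.03 over 13 genes, with Rrn3 at 1.21 and Polr1c at 1.17 above Polr1a at 0.81 and Taf1b at 0.88. Among 8 pseudouridine synthases the median was -0.04, with Rpusd4 at 1.46 and Pus1 at 1.28 above Pus10 at 0.86 and Trub2 at 0.95.

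On the polyamine list 1 of 11 genes passed in cluster 1, against 2.08% of 7962 genes higher and 6.59% lower. This was Eif5a, the translation factor that carries the spermidine-derived residue hypusine. It was 615 CPM in WT and 932 CPM in KO resting barcodes, a ratio of 1.52 (1.47 to 1.56). Of the enzymes that make hypusine, Dohh was at 1.29 (1.11 to 1.51) and Dhps at 0.97. Azin1, the antizyme inhibitor that protects ornithine decarboxylase from degradation, was lower, at 0.77 (0.68 to 0.88) in cluster 1 and at 0.63 in cluster 4.

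Among partners and antagonists of Myc none of 10 passed in cluster 1, against 2.08% of 7962 genes higher and 6.59% lower. Their median was -0.17, beside -0.06 for all genes. Mxd1 was at 1.30 (1.18 to 1.44) and Max at 1.06, whereas Mxd4 was at 0.67 (0.64 to 0.72) and Mga at 0.67 (0.60 to 0.74). Of 26 further known Myc targets 2 passed higher, against 2.08% of all genes. These were Slc7a5, an amino acid transporter, at 1.77 (1.38 to 2.31) and Shmt2, of mitochondrial one-carbon metabolism, at 1.60 (1.37 to 1.88). Tfrc and Hk2 were both at 0.81. In cluster 4 the median of the ribosome biogenesis lists was -0.10 over 121 genes, beside -0.05 for all genes there. Of the 121, 2 were higher (Noc4l and Rpusd4), against 3.05% of 6064 genes, and 2 lower (Pes1 and Pusl1), against 5.01%. In cluster 5 the median of these lists was 0.13 over 121 genes, and -0.16 over 111 genes in its effector-low barcodes. For all genes the median was 0.03 in both sets.

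**Figure D5:**
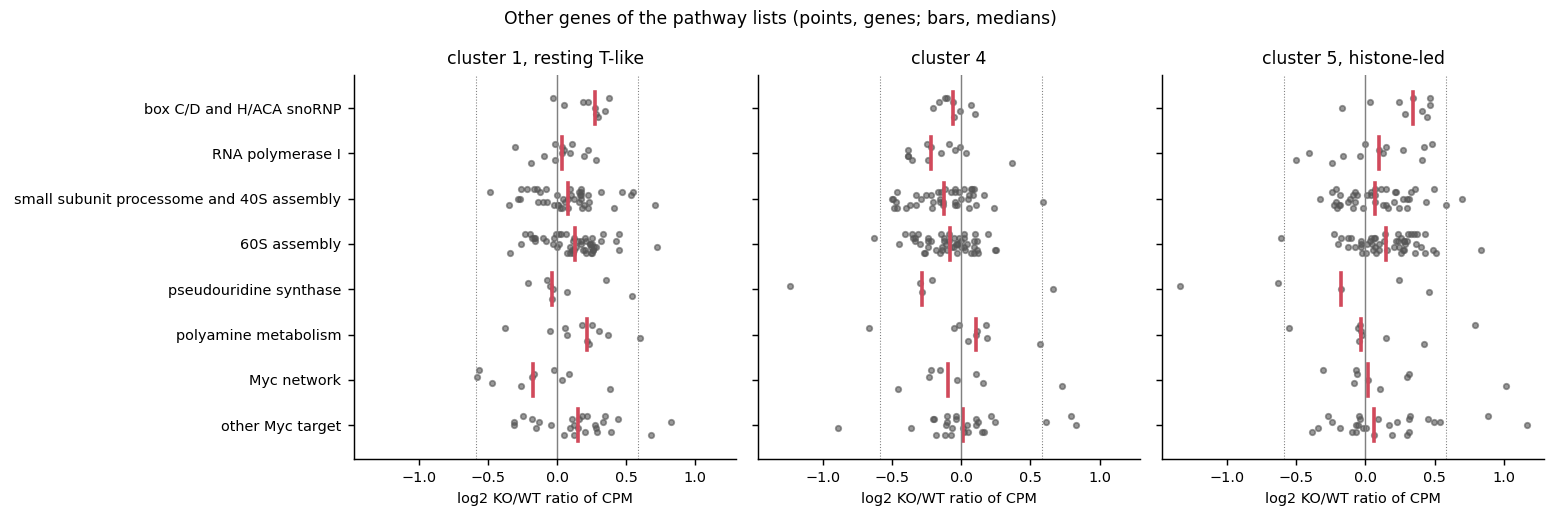
log2 KO to WT ratio of CPM for the genes of the other pathway lists (points, genes with at least 200 UMIs) in clusters 1, 4 and 5, with the median of each list as a red bar and dotted lines at 1.5-fold. In cluster 1 the box C/D and H/ACA list has its median at 0.28 and the Myc network list at -0.17.

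Levels were also compared over 17 sums of library and T-lineage cluster with at least 100 barcodes each. These sums share libraries and depth, so the correlations are descriptions. The 8 members other than Myc and Odc1 had pairwise Pearson r of log2 CPM from 0.15 to 0.93 with a median of 0.79 over 28 pairs. The low values in that range were those of Pus7, whose r with the other 7 was 0.15 to 0.38. Pus7 had 0 UMIs in KO cluster 6 and 2 in WT cluster 6, both among the 17 sums. The part of these few counts in its low r was not tested. Myc had r of 0.58 with Nop56, 0.53 with Srm, 0.49 with Rrs1, 0.35 with Nop58 and 0.32 with Ncl. Its r was lower with Fbl (0.19), Pus7 (0.18), Npm1 (0.05) and Odc1 (-0.03). The 5 genes most like Myc of 7192 ranked were Gpr65 (0.89), Nfkbid (0.87), B4galnt1 (0.87), Trmt1 (0.84) and Alkbh1 (0.83). Of these, Gpr65 encodes a proton-sensing receptor and Nfkbid a nuclear regulator of NF-kappaB, which was also on the list of activation markers.

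Cells of other lineages in the same libraries, 569 WT and 789 KO barcodes, gave other ratios. Npm1 was at 0.84 (0.81 to 0.86), Nop58 at 0.87 (0.80 to 0.94) and Ncl at 0.87 (0.84 to 0.90), all lower in KO, with intervals that exclude 1. Srm was at 0.98 (0.88 to 1.10), Odc1 at 0.95 (0.88 to 1.04), Myc at 0.92 (0.66 to 1.27) and Nop56 at 0.90 (0.83 to 0.99). Fbl was at 0.93 (0.86 to 1.01), Rrs1 at 1.06 (0.89 to 1.27) and Pus7 at 0.74 (0.53 to 1.05). None of 8 members passed 1.5-fold higher, against 2.23% of 5252 genes, or lower, against 4.76%. The clusters pooled here differed. In erythroid-like cluster 10 Npm1 was at 0.72 (0.69 to 0.75), Nop58 at 0.79 (0.70 to 0.89) and Ncl at 0.85 (0.82 to 0.89). In neutrophil-like cluster 13 they were at 1.16 (0.98 to 1.37), 2.12 (1.32 to 3.44) and 1.53 (1.31 to 1.78). In the neutrophil-like cluster 12, led by Elane and Mpo, they were at 1.06 (1.02 to 1.11), 0.99 (0.86 to 1.13) and 0.98 (0.93 to 1.03). Srm was 146 CPM in WT and 144 CPM in KO of cluster 12, and Odc1 was 105 and 106 CPM. The difference between T-lineage and other barcodes was not tested.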

How the data were processed

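The deposited values are unnormalized UMI counts, used here without change. Per the submitters' processing notes, Cell Ranger 5.0.1 and mm10 were used to obtain them. The 10 genes and all lists were chosen with earlier results of these data known. A barcode needed 300 or more genes and no more than 5% of UMIs from mitochondrial genes (removing 3 and 6471 WT, and 3 and 4364 KO barcodes), giving 54204367 WT and 57649800 KO UMIs of 64567991 and 65480052. In all, 70 barcode sequences occurred in both libraries, 29 of them among the kept. Doublets were not removed, except in an alternative. Each barcode was brought to 10000 UMIs before the log transform, and 2000 variable genes gave 30 principal components. From these 296 genes were barred, among them the 10 members, every pathway list, the resting, activated and effector markers and globin genes. The 47 S and G2/M phase genes were not barred, so the clusters could be built in part on them. A shared neighbour graph (20 neighbours) was clustered by the Leiden method at resolution 0.5 (scanpy 1.11.5, igraph 0.11.9, scikit-learn 1.9.0), with no integration. A cluster counted as T lineage with at least 50% of the median CPM of T cell genes and at least 50 barcodes. It was named when at least 1 of its 10 leading genes was a marker, more than for any other list. At least 3 markers had to be detected in 10% of barcodes and 3 raised 1.5-fold, in a cluster of at least 50 barcodes. A cluster whose best list was S phase was left unnamed, which applied to cluster 4. This rule was chosen with the data in view.

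UMIs were summed per library and set. CPM carry exact Poisson intervals, ratios exact conditional binomial intervals and shares exact Clopper-Pearson intervals (95%), for counting error only. Medians used log2 ratios with 0.5 UMI added. Those over all genes and over the pathway lists took genes with at least 200 UMIs. Those over the members took all 10 without this minimum, except in the alternatives for cluster 1 and for all T-lineage barcodes. The genes named were the 10 members, the 2 highest and 2 lowest of each list by KO/WT ratio in cluster 1, and the 5 genes most like Myc, over genes with at least 1000 UMIs. The ratio routine was tested on simulated counts. Because each genotype has 1 library, no p-value is given. The samples were grouped by the labels. How the authors' counting treated reads shared with near-identical copies, which Npm1 has, is not given in the sources used here.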

Additional observations from a re-analysis of the deposited data

Results flagged for a closer look

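Several members had KO to WT ratios on opposite sides of 1 in 2 sets of barcodes, each interval excluding 1. With 1 library per genotype, none of these differences was tested. Myc was higher in KO in cluster 1, at 1.22 (1.03 to 1.45), and in cluster 5, at 2.31 (1.82 to 2.93), but lower in cluster 4, at 0.817 (0.678 to 0.986). Ncl was likewise at 1.11 (1.08 to 1.14) in cluster 1 and 1.13 (1.10 to 1.15) in cluster 5, but at 0.930 (0.911 to 0.950) in cluster 4. Fbl was at 0.944 (0.893 to 0.999) in cluster 4 and 1.09 (1.03 to 1.16) in cluster 5. The effector share of cluster 5 differed between the libraries, and in its effector-low barcodes Ncl and Fbl were below 1.

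T-lineage barcodes and barcodes of other lineages also differed in direction. Ncl was at 1.19 in T-lineage and 0.868 in other barcodes, Npm1 at 1.05 and 0.837, Nop56 at 1.45 and 0.904, and Nop58 at 1.29 and 0.866. The other barcodes mix erythroid-like, neutrophil-like and B cell-like clusters, which did not all follow the pooled direction. Npm1 was at 0.72 (0.69 to 0.75) in erythroid-like cluster 10 but at 1.06 (1.02 to 1.11) in neutrophil-like cluster 12. The part of that mixture in these ratios was not tested.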

How the results depend on the processing

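No paired analysis was possible because each genotype has 1 library. The KO to WT ratio of Myc in resting T-like barcodes stayed between 1.12 and 1.27 over 12 alternatives, and the median log2 ratio of the 10 genes there between 0.115 and 0.208 over 14. At Leiden resolution 1.0 no cluster was named resting T-like, so that alternative gave no value for it. Under a lower fold threshold 1 member (Srm) passed in cluster 1 in place of 0. For the alternatives with new clusters, cluster 4 and cluster 5 were taken as the clusters with the highest activation and G2/M lists. The cause of each change was not tested, unless the set compared was itself another one. With the highest doublet scores removed, the median log2 ratio of cluster 4 over cluster 1 was 1.55 in WT and 1.28 in KO. With effector-low barcodes only it was 1.34 in WT. In KO it was 1.29 under median-of-ratios scaling, 1.14 with the mean of single-barcode CPM, 1.46 after thinning before clustering and 1.27 with members and pathway genes in the clustering. Myc in cluster 5 had a KO to WT ratio of 1.80 with up to 10% mitochondrial UMIs, 1.67 with the mean of single-barcode CPM, 1.45 (0.73 to 3.68) at resolution 1.0 and 1.49 (with 0.5 UMI added to each sum) in effector-low barcodes, all above 1. The T-lineage median of the 10 genes was 0.0822 in effector-low barcodes.

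Cycle-high over cycle-low was the least stable value. In WT its median was 0.52 under median-of-ratios scaling, 0.29 with the mean of single-barcode CPM, 0.49 at a threshold of 0.15%, 0.0458 at 0.6%, 0.11 in barcodes of 2000 to 8000 UMIs and 0.69 in effector-low barcodes. In KO it was 0.49 at 0.15%, 0.27 in barcodes of 2000 to 8000 UMIs and -0.16 at 0.6%, where it reversed.

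Among single members in cluster 4, thinning before clustering reversed Ncl to 1.15, Npm1 to 1.14 and Fbl to 1.09, and the 10% mitochondrial limit put Fbl at 1.03. In cluster 5 the 10% limit reversed Ncl to 0.918 and Nop58 to 0.966, resolution 1.0 put Npm1 at 1.02, and effector-low barcodes put Ncl at 0.88, Fbl at 0.897 and Pus7 at 0.949. Over all T-lineage barcodes, effector-low barcodes put Npm1 at 0.90 and Pus7 at 0.99. Odc1 stayed between 0.549 and 0.714 in cluster 4 and between 0.49 and 0.888 in cluster 5 over 12 alternatives each. The effector-low split, the omission of clusters 2, 6 and 8 and the omission of shared barcode sequences were added after the data had been seen.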
